A study of Mus musculus with 6 samples.

Results

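The 34 genes described here are the nuclear receptor gene Ppara, genes known as its targets, and genes for the enzymes and carriers of fatty acid oxidation. They were taken from the deposited expression table by gene symbol, each symbol had 1 row, and the table holds 55573 genes. The values come from polyA RNA sequencing of mouse liver in 2 genotypes, with 3 libraries each. The libraries labelled p21TKO come from mice given as p21-/-mTR-/-Wrn-/-, which lack p21 (Cdkn1a, a cyclin-dependent kinase inhibitor), mTR (Terc, the telomerase RNA) and Wrn (a helicase of the RecQ family). The control libraries, labelled DKO, come from mice given as mTR-/-Wrn-/-, so both groups carry the telomerase and helicase deletions. All mice were of generation 3, at which the design text says that progeroid symptoms were already present in the p21TKO animals, and all were on normal feed. Strain, age and sex are not given, and the tag 2M in the sample titles is not explained in the labels. The labels also do not say whether the replicates are separate animals, so p-values measure only the spread between these libraries. The comparison addresses which liver pathways differ when p21 is also lost.

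PPARA is a receptor that binds fatty acids and pairs with a retinoid X receptor on DNA, and in liver it is best known for raising fatty acid oxidation during fasting. Long-chain fatty acids are taken up and bound (Cd36, Fabp1), joined to coenzyme A (Acsl1) and carried into mitochondria as carnitine esters (Cpt1a, Slc25a20, Cpt2). There a repeating cycle of dehydrogenases, hydratases and thiolases shortens them, while peroxisomes shorten very long chains and the Cyp4a enzymes oxidise the far, omega, end of the chain.

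The PPARA and retinoid X receptor pair recognises a direct repeat of AGGTCA-like sites with 1 base between them, called DR1. To set the member genes' expression beside the sequence before their start sites, the 250 bases upstream of the RefSeq starts (GRCm38.p6) were searched on both strands for 2 copies of AGGNCA with any 1 base between them (DR1, where N is any base), for the single site AGGTCA, which can lie inside a DR1 match, and for the GC box GGGCGG. RefSeq promoters were matched for 28 of the 34 genes, and Acaa2, Cyp4a10, Cyp4a14, Cyp4a31, Decr1 and Vnn1 were not among them. The DR1 letters were found in 1 of the 28 genes, Fabp1, against 108 of 27025 genes in the whole promoter table (0.400%). The single site was found in 7 of 28 member genes (25%), against 15.8% of all genes. These were Acadm, Acadvl, Acot4, Cd36, Cpt1a, Creb3l3 and Fabp1. The GC box was found in 18 of 28 member genes (64.3%), against 35.4% of all genes. A match describes the letters and not a bound site, and the lack of one says only that these letters are not in this window. The sequences below are the promoters of 4 genes to which the results return: Fabp1, Cpt1a and Acaa1b, with lower p21TKO means, and Cd36, with a higher one. They are RefSeq sequence, each 250 bases read 5' to 3' on the strand of the gene and ending at the base before the start.
Fabp1: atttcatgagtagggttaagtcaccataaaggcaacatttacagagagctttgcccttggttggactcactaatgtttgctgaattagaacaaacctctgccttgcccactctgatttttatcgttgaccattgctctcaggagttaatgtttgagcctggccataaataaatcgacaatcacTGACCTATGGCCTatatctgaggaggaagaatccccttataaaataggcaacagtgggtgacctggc
Cpt1a: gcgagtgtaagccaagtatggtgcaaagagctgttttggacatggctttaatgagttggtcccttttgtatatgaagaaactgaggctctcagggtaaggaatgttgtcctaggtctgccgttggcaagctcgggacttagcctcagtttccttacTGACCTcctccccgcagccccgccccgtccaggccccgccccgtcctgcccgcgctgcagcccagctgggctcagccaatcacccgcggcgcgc
Cd36: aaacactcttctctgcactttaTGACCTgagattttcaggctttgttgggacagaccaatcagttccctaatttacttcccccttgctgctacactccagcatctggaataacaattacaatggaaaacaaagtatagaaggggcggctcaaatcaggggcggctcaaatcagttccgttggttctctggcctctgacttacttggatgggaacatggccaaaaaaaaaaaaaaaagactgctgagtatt
Acaa1b: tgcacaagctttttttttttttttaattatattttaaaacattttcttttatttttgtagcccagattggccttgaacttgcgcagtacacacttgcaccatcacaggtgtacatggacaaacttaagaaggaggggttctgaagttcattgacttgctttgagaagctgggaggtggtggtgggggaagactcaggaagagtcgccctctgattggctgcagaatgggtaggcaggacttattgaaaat
The capitals in Fabp1 (chr6:71199629-71199878, plus strand) mark the DR1 match, which lies on the opposite strand between bases -67 and -55, counted back from the start. A further single site in Fabp1, at -9 to -4, is left in lower case. In Cpt1a (chr19:3323051-3323300, plus strand) the capitals mark a single site at -94 to -89, and in Cd36 (chr5:17835897-17836146, minus strand) they mark one at -228 to -223. The Acaa1b window (chr9:119157094-119157343, minus strand) held none of the 3 motifs. The Cd36 and Cpt1a windows lie inside the annotated genes (chr5:17781690-17888801 and chr19:3322334-3385733), so they precede internal starts. The Fabp1 window runs past the annotated start of its gene (chr6:71199827).

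The deposited values are FPKM, fragments per kilobase of gene scaled to the depth of the library, so levels can be compared between genes. The FPKM denominators were between 19363284 and 27061291 reads per library, and 18271 to 19535 genes were above 0. Cdkn1a transcripts were at 1.41, 11.05 and 6.5 FPKM in the 3 libraries labelled p21TKO, against 0.761, 1.79 and 0.405 FPKM in the DKO libraries. They were therefore not lower in the libraries labelled p21TKO, and every direction below rests on the labels. Which exons were deleted is not stated, so the values cannot check the deletion. Wrn stood between 0.197 and 0.294 FPKM in all libraries. Terc was at 0 in all, and its RNA lacks the polyA tail by which these libraries were made. p21TKO replicates 2 and 3 stood apart from the other libraries on the first principal component (57.2% of the variance, scores 44.4 and 56.6, against -34.6 for p21TKO replicate 1 and -33.6 to -7.73 for DKO). Transcripts of the Y-linked genes Ddx3y, Eif2s3y, Kdm5d and Uty were present in p21TKO replicate 1 and in DKO replicates 2 and 3, with no reads in the other libraries. Each comparison of the groups thus also sets 1 of 3 p21TKO libraries with Y-linked reads against 2 of 3 DKO libraries with them. All 14 hepatocyte markers were detected, with a summed 56695 to 74046 FPKM in p21TKO and 46722 to 55702 FPKM in DKO libraries.

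None of the 34 genes passed the test between p21TKO and DKO livers, although most had lower values in p21TKO. Differences were tested with limma on log2(FPKM + 1), a scale that understates the change of low genes, over all 9538 genes with a mean of at least 1 FPKM. Every log2 difference below is p21TKO minus DKO on that scale. All 34 genes reached that mean, and 0 had an adjusted p under 0.05 (range 0.523 to 0.988), by limma on FPKM or by voom on recovered reads. Of all genes tested 0.0734% passed, 0.0315% as higher and 0.0419% as lower. The values were lower in p21TKO for 27 of the 34 genes (26 to 28 under other scalings of the libraries) and higher for 7, while 49.8% of all tested genes were lower. The median log2 difference of the 34 was -0.42, against 0.0016 for all tested genes. Before adjustment, 4 genes had p under 0.05, and all 4 were lower: Cpt1a, Ehhadh, Acot1 and Vnn1. The share of all tested genes with such a p was 9.38%, and 5.29% when only lower genes are counted. In 4 genes, Creb3l3, Cpt1a, Ehhadh and Vnn1, every p21TKO library lay below every DKO library, and in 0 genes did every one lie above. Over all tested genes these shares were 8.49% below and 6.93% above, and 15.4% in either direction. The members' share with separated groups thus lay near that of all genes. With 3 libraries a group, an exact two-sided permutation test of 1 gene cannot go below p = 0.1. In bulk liver, fewer cells of a type and less RNA per cell cannot be told apart.

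**Figure D1:**
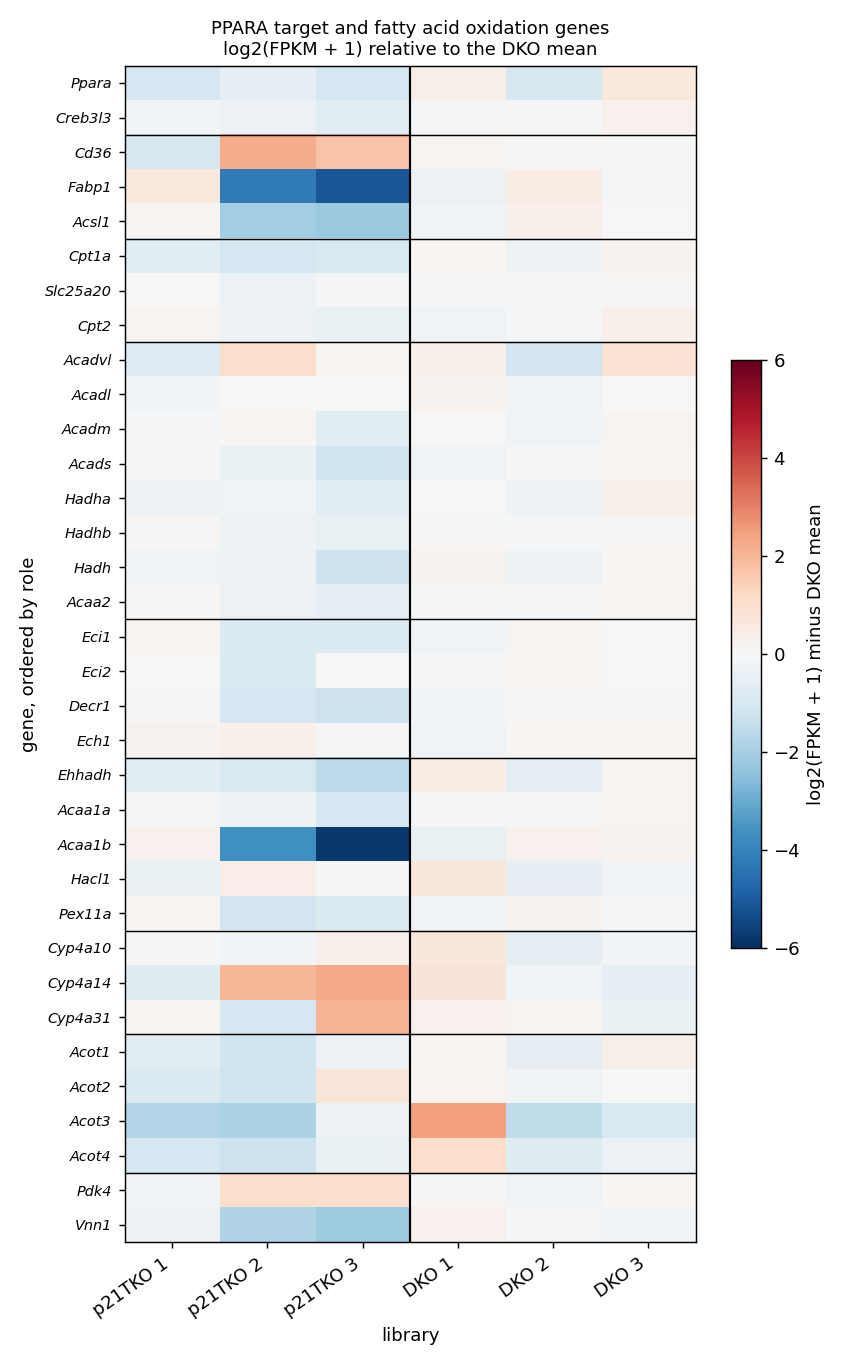
Log2(FPKM + 1) of the 34 genes (rows, ordered by role) in the 3 p21TKO and 3 DKO libraries (columns), minus the mean of the 3 DKO libraries for that gene. Colour gives that value on a scale of -6 to 6, blue for lower. The darkest blue cells are Acaa1b and Fabp1 in p21TKO replicates 2 and 3, while p21TKO replicate 1 is above the DKO range for both genes.

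Both regulators had lower means in p21TKO. Ppara (ENSMUSG00000022383, chr15:85734983-85802819, GRCm38) itself had 9.25, 13.1 and 9.04 FPKM in p21TKO replicates 1 to 3, against 25.5, 9.72 and 31.0 FPKM in DKO replicates 1 to 3. DKO replicate 2 lay within the p21TKO values, and the other DKO libraries were above all of them. The means were 10.46 ± 2.28 FPKM in p21TKO and 22.1 ± 11.05 FPKM in DKO (SD, n = 3 each). On the log2 scale p21TKO stood at -0.88 (SE 0.43) relative to DKO, with a limma adjusted p of 0.536. The value was -0.58 without DKO replicate 3 and -1.36 without DKO replicate 2. Creb3l3, which encodes a membrane-bound liver transcription factor that acts together with PPARA in fasting, had 76.8, 68.3 and 54.4 FPKM in p21TKO, against 80.4, 79.6 and 103 FPKM in DKO. All p21TKO libraries were below all DKO libraries, with the nearest pair at 76.8 and 79.6 FPKM. The log2 difference was -0.40 (SE 0.25, limma adjusted p = 0.602), and -0.26 without p21TKO replicate 3.

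The uptake, binding and activation genes differed widely among the p21TKO libraries. Fabp1, the main fatty acid binding protein of the hepatocyte cytosol, was the gene with the highest FPKM of the 34. It had 9583, 324 and 172 FPKM in p21TKO replicates 1 to 3 (102618, 4108 and 2574 reads), against 4707, 8208 and 5884 FPKM in DKO. p21TKO replicate 1 was above every DKO library, and the other p21TKO libraries were below every one of them. The means of 3359.7 ± 5390.4 FPKM in p21TKO and 6266 ± 1782 FPKM in DKO (SD, n = 3 each) therefore do not describe any of the p21TKO libraries. For Fabp1 the log2 difference was -2.91 (SE 1.43, limma adjusted p = 0.544), and without p21TKO replicate 1 it was -4.69 (SE 0.42, limma adjusted p = 0.0062). Without p21TKO replicate 3 it was -1.79 and did not pass. p21TKO replicate 1 is the only p21TKO library with Y-linked reads, so without it the groups are set further apart by those transcripts. This holds wherever it is left out below.

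Acsl1, which joins long-chain fatty acids to coenzyme A, had 96.5, 19.0 and 17.6 FPKM in p21TKO, against 69.8, 105 and 83.5 FPKM in DKO. Here p21TKO replicates 2 and 3 were again below the DKO libraries, while replicate 1 was among them. Its log2 difference was -1.38 (SE 0.65, limma adjusted p = 0.535), and -2.15 without p21TKO replicate 1 (limma adjusted p = 0.0131). Cd36, a membrane receptor that takes up long-chain fatty acids, had the opposite order, with 1.55, 22.3 and 15.1 FPKM in p21TKO, against 4.65, 3.62 and 3.75 FPKM in DKO. Here p21TKO replicates 2 and 3 were above all DKO libraries and replicate 1 was below them. Its log2 difference was 0.98 (SE 0.78, limma adjusted p = 0.665), and 1.96 without p21TKO replicate 1 (limma adjusted p = 0.0114). Without p21TKO replicate 2 it was 0.36, and 0.63 without replicate 3. Cd36 is also made by macrophages, endothelial cells and adipocytes, whose marker values are given after the members.

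In the carnitine shuttle, only the entry step had separated groups. Cpt1a (ENSMUSG00000024900, chr19:3322334-3385733) encodes the liver carnitine palmitoyltransferase of the outer mitochondrial membrane, the controlled step of fatty acid entry. It had 36.3, 26.7 and 29.6 FPKM in p21TKO, against 61.2, 45.1 and 64.1 FPKM in DKO. Every p21TKO library was lower than every DKO library, with the nearest pair at 36.3 and 45.1 FPKM. The means were 30.9 ± 4.91 FPKM in p21TKO and 56.8 ± 10.3 FPKM in DKO (SD, n = 3 each). The log2 difference of -0.85 (SE 0.24) missed the threshold (limma adjusted p = 0.523). It ran from -1.01 to -0.76, with no call, when single libraries were left out. Slc25a20, the carnitine-acylcarnitine carrier of the inner membrane, had 20.9, 16.7 and 19.2 FPKM in p21TKO, against 19.4, 22.4 and 22.0 FPKM in DKO. Cpt2, which returns the chain to coenzyme A inside the mitochondrion, had 45.7, 32.3 and 31.0 FPKM in p21TKO, against 34.8, 39.2 and 50.1 FPKM in DKO. In both genes p21TKO replicates 2 and 3 were below the DKO libraries and replicate 1 was among them, with log2 differences of -0.16 (SE 0.19) for Slc25a20 and -0.19 (SE 0.26) for Cpt2.

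The 8 genes of the mitochondrial cycle had small log2 differences, and none passed the test. The log2 difference was negative for 7 of them (6 under quantile normalization, where Acadl was at 0.028), with a median of -0.26 and a range of -0.58 to 0.13, 0 of 8 had separated groups, and the smallest adjusted p was 0.583. The first step of the cycle is taken by acyl-CoA dehydrogenases that differ in the chain length they accept. Acadvl, for very long chains, varied most, with 22.1, 79.7 and 41.0 FPKM in p21TKO, against 47.9, 16.9 and 67.2 FPKM in DKO. Neither group stood together, and the log2 difference was 0.13 (SE 0.63). Acadl, for long chains, varied least of the 34 genes, with 82.5, 96.8 and 96.0 FPKM in p21TKO, against 107, 81.8 and 93.9 FPKM in DKO. The highest and the lowest Acadl values were both in DKO, 1.31-fold apart, and the log2 difference was -0.034 (SE 0.23). Acadm, for medium chains, had 60.3, 69.5 and 39.9 FPKM in p21TKO, against 64.9, 54.9 and 72.0 FPKM in DKO. Acads, for short chains, had 61.5, 50.1 and 27.9 FPKM in p21TKO, against 57.4, 69.5 and 71.8 FPKM in DKO. Both were lowest in p21TKO replicate 3, and the log2 differences were -0.20 (SE 0.28) for Acadm and -0.57 (SE 0.33) for Acads, which was at -0.24 without that library.

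In all 4 genes of the later steps of the cycle, p21TKO replicate 3 was the lowest library. Hadha and Hadhb encode the subunits of the trifunctional protein, which carries out the remaining steps on long chains, and their gene bodies lie head to head with 85 bases between the annotated starts on chromosome 5. Hadha had 24.4, 24.98 and 18.7 FPKM in p21TKO, against 30.4, 24.3 and 36.8 FPKM in DKO. Hadhb had 20.6, 15.5 and 14.0 FPKM in p21TKO, against 20.4, 18.2 and 20.3 FPKM in DKO. The log2 differences were -0.40 (SE 0.24) for Hadha and -0.23 (SE 0.21) for Hadhb. Of the 100-base windows of Hadhb, 14.8% also occur in the locus Gm13910, so its values are less certain. Hadh, the hydroxyacyl-CoA dehydrogenase for shorter chains, had 48.7, 44.8 and 23.3 FPKM in p21TKO, against 63.9, 45.4 and 59.9 FPKM in DKO. It stood at a log2 difference of -0.58 (SE 0.34), and at -0.25 without p21TKO replicate 3. Acaa2, the thiolase that releases acetyl-CoA, stood at a higher level than any other enzyme of the cycle, with 485, 362 and 312 FPKM in p21TKO, against 422, 442 and 522 FPKM in DKO. The groups overlapped, at a log2 difference of -0.28 (SE 0.30).

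Among the 4 auxiliary enzymes, which handle the double bonds of unsaturated fatty acids, 3 had lower values in p21TKO. Decr1, the mitochondrial dienoyl-CoA reductase, had 47.7, 22.3 and 18.6 FPKM in p21TKO, against 40.5, 48.1 and 48.1 FPKM in DKO. Replicate 1 of p21TKO lay within the DKO values and the others below. The difference on the log2 scale was -0.72 (SE 0.37, limma adjusted p = 0.547), and -1.12 without p21TKO replicate 1 (limma adjusted p = 0.0443). Without p21TKO replicate 3 it was -0.46. Eci1, a mitochondrial enoyl-CoA isomerase, had 60.3, 30.4 and 30.8 FPKM in p21TKO, against 48.0, 61.8 and 56.8 FPKM in DKO. As in Decr1, p21TKO replicates 2 and 3 alone were below the DKO values, with a log2 difference of -0.51 (SE 0.32). Eci2, a related isomerase, was low in p21TKO replicate 2 alone, at 22.3 FPKM, with 38.0 to 45.3 FPKM in the other libraries of both groups. Its log2 difference was -0.28 (SE 0.30), and 0.022 without that library. Ech1, a dienoyl-CoA isomerase, had 122.8, 127.8 and 98.8 FPKM in p21TKO, against 89.5, 112.3 and 114.1 FPKM in DKO, and a log2 difference of 0.14 (SE 0.25).

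All 5 peroxisomal genes had lower means in p21TKO, with a median log2 difference of -0.61. Ehhadh (ENSMUSG00000022853, chr16:21761287-21787807), the peroxisomal bifunctional enzyme and a classical PPARA target, had 33.3, 29.0 and 17.9 FPKM in p21TKO, against 74.2, 36.2 and 60.7 FPKM in DKO. All p21TKO libraries lay below all DKO libraries, with the nearest pair at 33.3 and 36.2 FPKM. The means were 26.7 ± 7.96 FPKM in p21TKO and 57.0 ± 19.3 FPKM in DKO (SD, n = 3 each). The log2 difference was -1.05 (SE 0.36, limma adjusted p = 0.523). No library decided this value, which ran from -1.34 to -0.80 with each left out.

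Acaa1b, a peroxisomal thiolase, had the widest range of the 34 genes, at 83.3-fold between the highest and the lowest library. It had 331, 20.8 and 3.97 FPKM in p21TKO (12570, 935 and 211 reads), against 201, 329 and 320 FPKM in DKO. p21TKO replicate 1 was the highest of all libraries, just above DKO replicate 2, and the other p21TKO libraries were the lowest. Its log2 difference was -3.07 (SE 1.40, limma adjusted p = 0.531), and -4.74 without p21TKO replicate 1 (SE 0.63, limma adjusted p = 0.0161). Without p21TKO replicate 3 it was -1.71 and did not pass. Its paralog Acaa1a had 47.2, 39.0 and 23.1 FPKM in p21TKO, against 44.5, 47.3 and 55.6 FPKM in DKO, a log2 difference of -0.47 (SE 0.31). The pair share some sequence, since 19.3% of the 100-base windows of Acaa1b and 7.21% of those of Acaa1a occur in the other gene, so part of their reads could have been split between them. Pex11a, which takes part in peroxisome division, had 31.4, 12.5 and 15.6 FPKM in p21TKO, against 25.6, 33.7 and 27.1 FPKM in DKO. Here too p21TKO replicates 2 and 3 alone were below the DKO values, with a log2 difference of -0.61 (SE 0.35). Hacl1, a lyase of fatty acid alpha-oxidation, stood between 3.10 and 8.14 FPKM, with both of these values in DKO and a log2 difference of -0.049 (SE 0.34), and shares 23.9% of its windows with Gm49387.

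**Figure D2:**
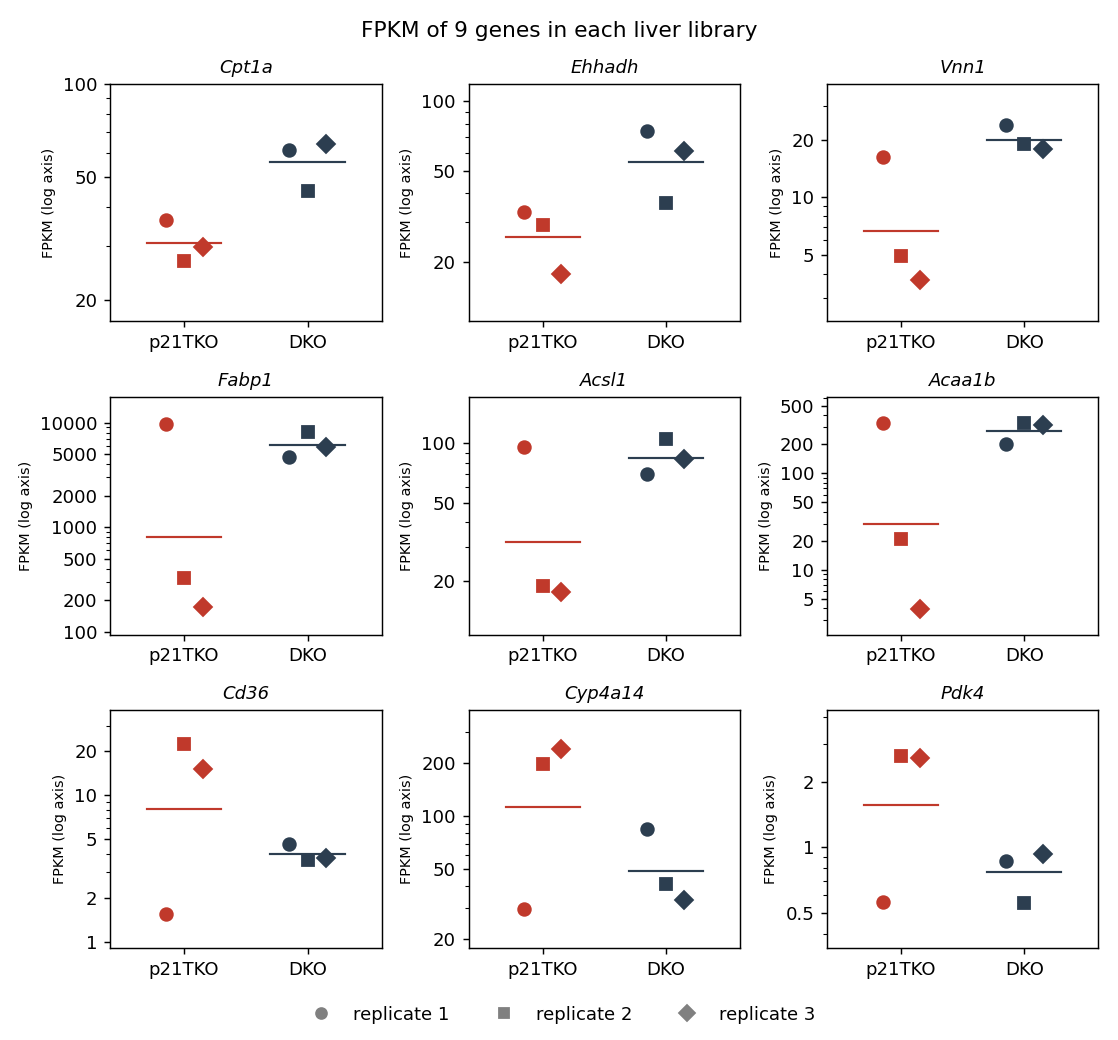
FPKM (log axis) of 9 genes in each p21TKO and DKO library, with symbols for the replicate number and lines at the geometric mean of each group. Cpt1a, Ehhadh and Vnn1 (top) have every p21TKO library below every DKO library, while in Fabp1, Acsl1 and Acaa1b (middle) and Cd36, Cyp4a14 and Pdk4 (bottom) p21TKO replicate 1 lies on the other side of the DKO libraries from replicates 2 and 3, or among them.

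The 3 omega-oxidation genes all had log2 differences above 0 in the values as deposited, although Cyp4a10, at 0.021, was at -0.028 with mitochondrially encoded genes left out of the total. Cyp4a14, a fatty acid omega-hydroxylase widely used as a marker of PPARA activation in mouse liver, had 29.7, 199 and 240 FPKM in p21TKO, against 85.0, 41.2 and 33.6 FPKM in DKO. p21TKO replicates 2 and 3 were above all DKO libraries, and p21TKO replicate 1 was the lowest of the 6. The means were 156 ± 111 FPKM in p21TKO and 53.3 ± 27.7 FPKM in DKO (SD, n = 3 each). The log2 difference of 1.19 (SE 0.82, limma adjusted p = 0.625) became 2.13 without p21TKO replicate 1 (SE 0.43, limma adjusted p = 0.0461). It was 0.78 without p21TKO replicate 2, 0.65 without replicate 3 and 0.52 with a term for Y-linked reads. Cyp4a10, the other commonly used Cyp4a marker, had 56.8, 53.0 and 73.1 FPKM in p21TKO, against 95.7, 40.8 and 53.7 FPKM in DKO. Its p21TKO values all lay inside the DKO range, and the SE of its log2 difference was 0.36. Cyp4a31, another member of the family, had 4.20, 1.35 and 18.3 FPKM in p21TKO, against 4.55, 4.22 and 2.49 FPKM in DKO. A single library, p21TKO replicate 3, was high, and without it the log2 difference of 0.41 (SE 0.71) was -0.41. Reads could be shared among these paralogs, since 12.2% of the windows of Cyp4a10 and 7.33% of those of Cyp4a31 occur elsewhere, mostly in Cyp4a32. None of the windows of Cyp4a14 do.

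The 4 acyl-CoA thioesterases, which split fatty acyl-CoA into free fatty acid and coenzyme A, had low levels and negative log2 differences, with a median of -0.82. Acot1, the cytosolic enzyme, had 1.63, 0.834 and 2.28 FPKM in p21TKO, against 3.57, 1.99 and 4.28 FPKM in DKO. The groups overlapped through DKO replicate 2, which was below p21TKO replicate 3. For Acot1 the log2 difference was -0.73 (SE 0.29, limma adjusted p = 0.523). Acot2, the mitochondrial enzyme, had 0.611, 0.298 and 3.94 FPKM in p21TKO (26, 15 and 234 reads), against 2.37, 1.65 and 1.93 FPKM in DKO (125, 78 and 94 reads). It was lower than in DKO in p21TKO replicates 1 and 2 and higher in replicate 3, with a log2 difference of -0.45 (SE 0.48), of -1.04 without p21TKO replicate 3 and of -0.073 without replicate 2. Acot3, a peroxisomal enzyme, had 0.601, 0.456 and 3.15 FPKM in p21TKO, against 28.5, 0.838 and 1.83 FPKM in DKO. DKO replicate 1 alone set its DKO mean, and the DKO libraries were 34-fold apart. Without that library the Acot3 log2 difference of -1.33 (SE 1.04) was -0.099, and without DKO replicate 2 it was -2.10. Acot4, also peroxisomal, had 3.88, 3.21 and 6.74 FPKM in p21TKO, against 20.4, 5.18 and 6.84 FPKM in DKO, again with DKO replicate 1 highest. Its log2 difference was -0.90 (SE 0.49), and -0.36 without DKO replicate 1. All 4 genes were lowest in p21TKO replicate 2. They neighbour each other on chromosome 12, and between 0.336% (Acot4) and 17.1% (Acot2) of their windows occur in another gene. The separate values of Acot2, Acot1 (12.4%) and Acot3 (13.8%) are uncertain for that reason.

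The last pair of targets had opposite signs. Vnn1 (ENSMUSG00000037440, chr10:23894688-23905343), a pantetheinase induced by PPARA in fasted mouse liver, had 16.3, 4.96 and 3.72 FPKM in p21TKO, against 23.8, 18.9 and 17.8 FPKM in DKO. All p21TKO libraries were below all DKO libraries, with p21TKO replicate 1 close under the DKO range. The means were 8.31 ± 6.92 FPKM in p21TKO and 20.2 ± 3.18 FPKM in DKO (SD, n = 3 each). The log2 difference was -1.42 (SE 0.48, limma adjusted p = 0.523), and -1.99 without p21TKO replicate 1 (limma adjusted p = 0.0104). Pdk4, a kinase that turns off pyruvate dehydrogenase and so spares glucose, was the lowest of the 34 genes, with 0.559, 2.64 and 2.59 FPKM in p21TKO (38, 213 and 246 reads), against 0.865, 0.556 and 0.936 FPKM in DKO (73, 42 and 73 reads). p21TKO replicates 2 and 3 were above the DKO libraries and replicate 1 was among them. For Pdk4 the log2 difference was 0.62 (SE 0.35, limma adjusted p = 0.576), and 1.02 without p21TKO replicate 1 (limma adjusted p = 0.0271). Without p21TKO replicate 2 it was 0.41.

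Read across the members, the p21TKO libraries were not alike. p21TKO replicates 2 and 3 were both below the DKO range in 17 of the 34 genes and both above it in 3 (Cd36, Cyp4a14 and Pdk4), while 24.4% of all tested genes had both below and 20.2% both above. p21TKO replicate 1 lay within the DKO range in 19 of 34, against 43.3% of all tested genes. The lowest of the 6 libraries was p21TKO replicate 3 in 16 genes, p21TKO replicate 2 in 10, p21TKO replicate 1 in 2, DKO replicate 2 in 5, DKO replicate 1 in 1 and DKO replicate 3 in 0. The median of the centred values of the 34 genes was 0.02, -0.22 and -0.38 in p21TKO replicates 1 to 3, against 0.20, 0.02 and 0.31 in DKO replicates 1 to 3. By this median p21TKO replicate 1 stood beside DKO replicate 2.

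Without p21TKO replicate 1, 8 of the 34 genes passed the test (limma adjusted p under 0.05), where 5.19% of all tested genes passed (495 genes, against 7 with all libraries). Of the members, 5 were lower in p21TKO (Fabp1, Acaa1b, Acsl1, Vnn1 and Decr1), where 2.83% of all tested genes were lower, and 3 were higher (Cd36, Cyp4a14 and Pdk4), where 2.36% were. Leaving out any other single library gave 0 members called. Of the 4 genes with separated groups, only Vnn1 was among the 8. The others stood at -0.51 for Creb3l3 (limma adjusted p = 0.283), -0.97 for Cpt1a (limma adjusted p = 0.081) and -1.23 for Ehhadh (limma adjusted p = 0.116).

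**Figure D3:**
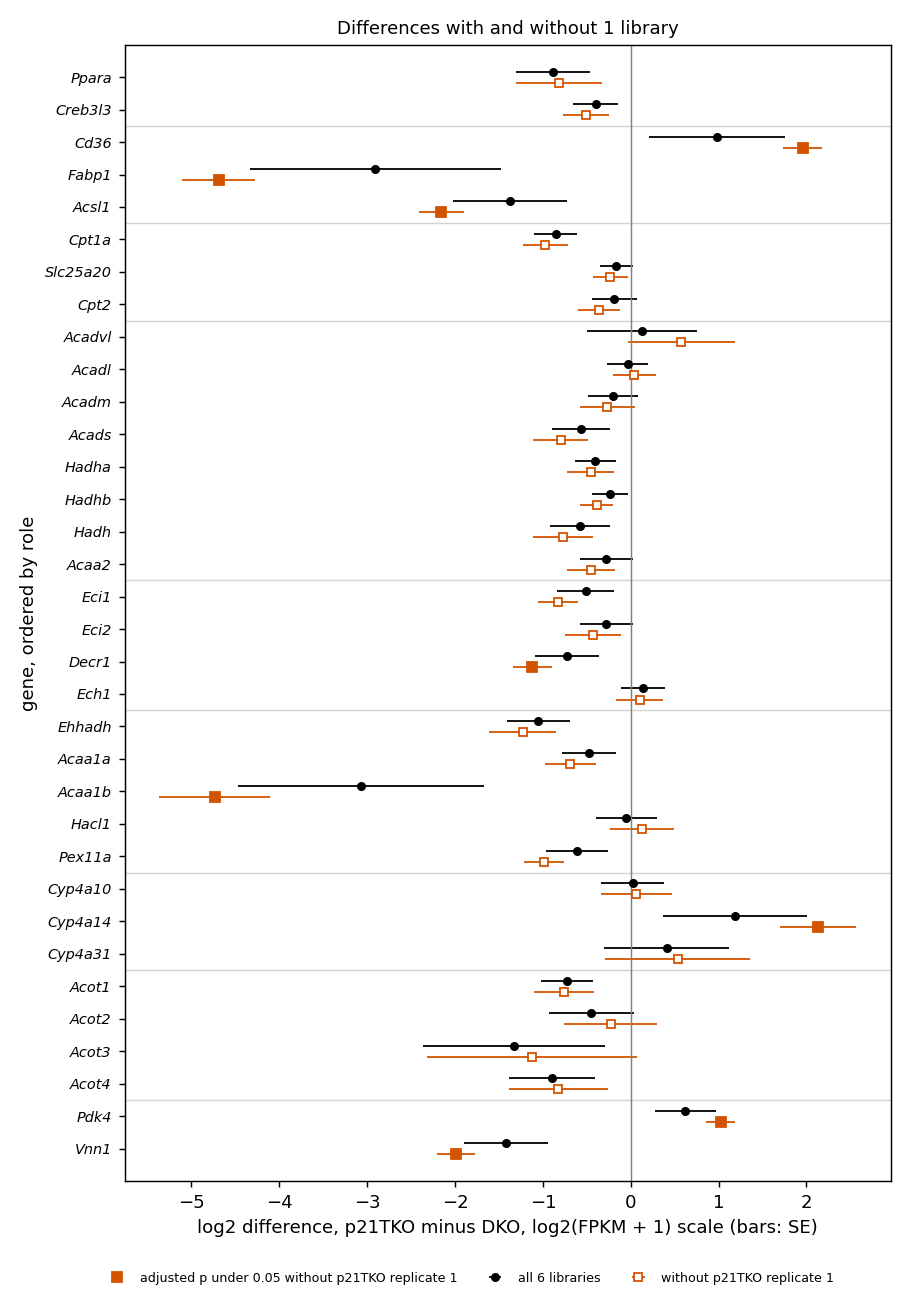
Log2 difference (p21TKO minus DKO, log2(FPKM + 1) scale) of each gene with its standard error, with all 6 libraries (black circles) and without p21TKO replicate 1 (orange squares, filled where the limma adjusted p is under 0.05). Filled squares are found for 8 genes, 5 to the left of 0 and 3 to the right. Most other genes lie left of 0 in both fits, down to -1.23 (Ehhadh) without p21TKO replicate 1.

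The same values were compared within the libraries that had Y-linked reads and within those that had none. Without Y-linked reads, p21TKO replicates 2 and 3 stand against DKO replicate 1, and with them p21TKO replicate 1 stands against DKO replicates 2 and 3, so each comparison has a single library on 1 of its sides. The median log2 difference of the 34 genes was -0.54 without Y-linked reads and -0.09 with them, where the medians of all tested genes were 0.02 and -0.0020. Fabp1 differed by -4.31 without Y-linked reads and by 0.46 with them, and Acaa1b by -4.28 without and 0.029 with them. Cpt1a was lower in p21TKO on both sides, at -1.09 without and -0.55 with Y-linked reads. Ppara was at -1.16 without and -0.85 with them. With Y-linked reads, Ppara in p21TKO replicate 1 (9.25 FPKM) was close to DKO replicate 2 (9.72 FPKM), and DKO replicate 3 (31.0 FPKM) was far above. Ehhadh was at -1.66 without and -0.48 with Y-linked reads. In 6 of the 34 genes the libraries did not overlap in either comparison and the directions were opposite, while 18.9% of all tested genes met that rule, so the members' share lay near that of all genes. A test of whether the p21TKO difference depends on the presence of Y-linked reads called 13 of 9538 genes (0.136%) and 0 of the 34 (limma, adjusted p under 0.05). With a term for Y-linked reads in the fit, the p21TKO values were lower for 29 of 34 genes with a median of -0.33, and 0 passed.

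Markers of other cell types and of the acute phase response were unlike in the same libraries. The summed FPKM of 19 acute phase genes was 5888, 64239 and 32616 in p21TKO replicates 1 to 3, against 9884, 11771 and 8677 in DKO replicates 1 to 3. The 15 neutrophil markers, of which 8 were high enough to test, summed to 27.4, 2204 and 692 FPKM in p21TKO, against 71.3, 67.2 and 24.8 FPKM in DKO. Both sums were highest in p21TKO replicates 2 and 3, the libraries in which Fabp1, Acsl1 and Acaa1b were low. In p21TKO replicates 2 and 3 most of the neutrophil sum was Lcn2, which hepatocytes also make and which the acute phase list holds too. Lcn2 had 2.38, 1640 and 468 FPKM in p21TKO, against 60.5, 37.6 and 12.2 FPKM in DKO. S100a9, a calcium-binding protein of neutrophils, had 13.9, 267 and 102 FPKM in p21TKO, against 7.10, 16.6 and 7.24 FPKM in DKO. The 14 Kupffer cell and macrophage markers summed to 50.7, 445 and 235 FPKM in p21TKO, against 151, 104 and 72.3 FPKM in DKO. The 16 liver endothelial markers summed to 26.2, 124 and 69.0 FPKM in p21TKO, against 43.1, 29.6 and 26.7 FPKM in DKO. For both lists p21TKO replicates 2 and 3 were again the highest libraries, as they were for Cd36. The 8 adipocyte markers overlapped between the groups, summing to 5.82 to 6.82 FPKM in p21TKO and 5.39 to 7.10 FPKM in DKO, with 2 of 8 at 0 in all libraries. The sum of the 14 hepatocyte markers, led by Alb, Apoa1 and Ttr, was not lower in p21TKO replicates 2 and 3. Their sums of 74046 and 72874 FPKM were the highest of the 6 libraries. Single markers differed, with both of these libraries below the DKO range in 2 of the 14 and both above it in 8. The median log2 difference of the hepatocyte markers was 0.35, with 4 of 14 lower. None of the markers in these lists passed the test with all 6 libraries (limma). An unadjusted p under 0.05 was found for 4 of 8 neutrophil, 2 of 16 endothelial, 1 of 3 adipocyte and 0 other markers tested. The share of all tested genes with such a p was 9.38%. Without p21TKO replicate 1, 7 of 19 acute phase, 6 of 8 neutrophil, 2 of 12 Kupffer cell and macrophage and 8 of 16 endothelial markers passed as higher. So did 3 of 14 hepatocyte markers and 1 of 3 adipocyte markers, and 1 of 3 adipocyte markers passed as lower. Of all tested genes, 2.36% then passed as higher and 2.83% as lower. The share of summed FPKM from mitochondrially encoded genes also differed, at 15.3%, 7.41% and 10.02% in p21TKO replicates 1 to 3, against 14.3%, 22.6% and 14.1% in DKO replicates 1 to 3, and was lowest in p21TKO replicates 2 and 3. The lists are not independent, since Lcn2 is in 2 marker lists and Fabp4 and Cidec are also on the lists of other pathway genes. The part of these markers and of the mitochondrial share in the members' values was not tested.

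**Figure D4:**
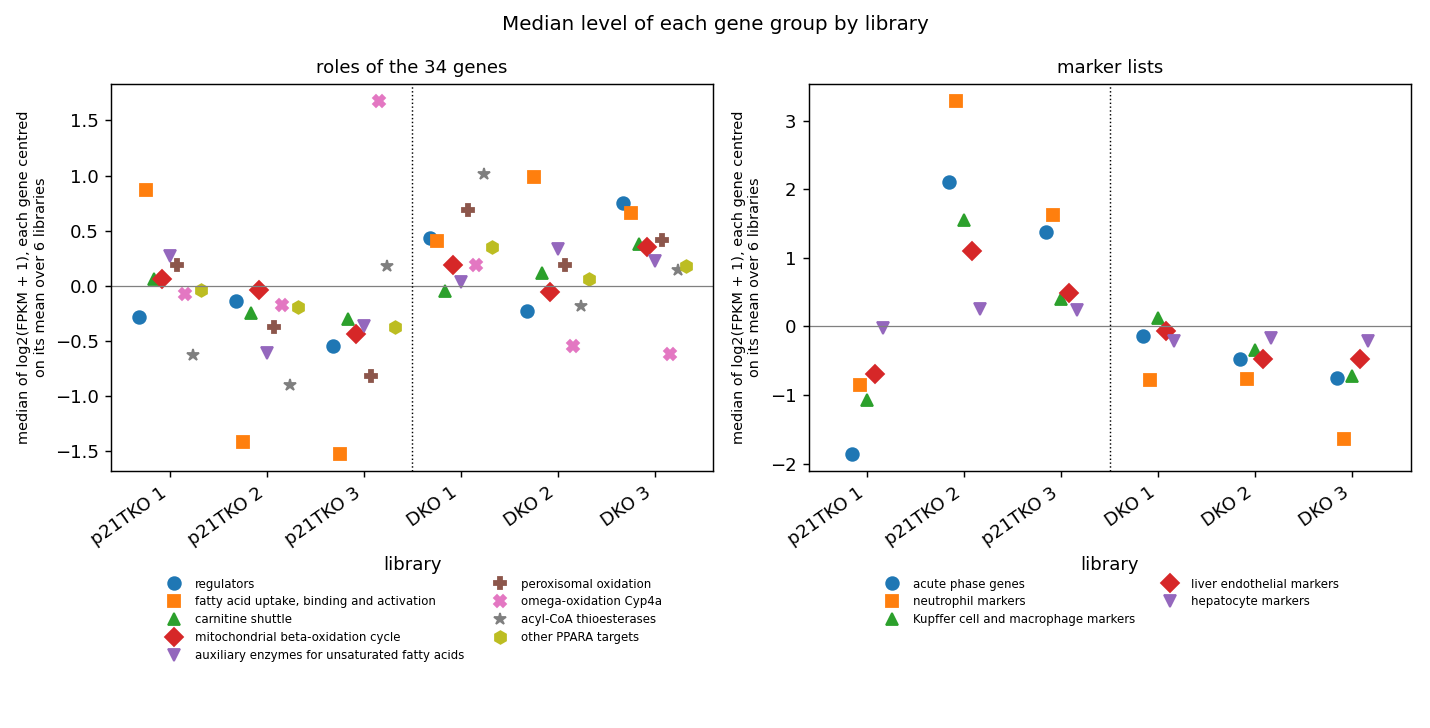
Median of log2(FPKM + 1) over each group of genes in each library, every gene centred on its mean over the 6 libraries, for the roles of the 34 genes (left) and for marker lists (right). The uptake, binding and activation genes (orange squares, left) are at -1.41 and -1.52 in p21TKO replicates 2 and 3, where the acute phase genes (blue circles, right) are at 2.10 and 1.37.

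Of the other genes of the pathway, 141 were listed and 119 were high enough to test. None passed with all 6 libraries (limma), 18 had an unadjusted p under 0.05, all lower, 89 of 119 had lower values in p21TKO, the median log2 difference was -0.32, and the groups were separated with p21TKO lower in 24 and higher in 2, where 8.49% and 6.93% of all tested genes were. Without p21TKO replicate 1, 14 of the 119 passed as lower and 1 as higher, where 2.83% of all tested genes passed as lower and 2.36% as higher. The lists were chosen with earlier results of these data known, so their counts are a description and not a test. The genes named below from each list are among its 3 with the smallest p in these same data. Their size and separation follow in part from that choice and do not describe their lists. Of 17 PPARA partners and coregulators, 12 had lower values. Med1, a Mediator subunit that binds nuclear receptors, had 1.53, 1.58 and 1.604 FPKM in p21TKO, against 2.49, 2.15 and 2.44 FPKM in DKO. Prkaa2, a catalytic subunit of the energy sensor AMPK, had 8.02, 5.02 and 4.30 FPKM in p21TKO, against 9.65, 9.68 and 10.4 FPKM in DKO. The groups were separated in both genes, with log2 differences of -0.38 for Med1 and -0.72 for Prkaa2 (limma adjusted p = 0.523 each), and Prkaa2 was at -0.95 without p21TKO replicate 1 (limma adjusted p = 0.0331). The third named partner, Rxrg, a retinoid X receptor, overlapped between the groups at -0.35.

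Ketone bodies are made from the acetyl-CoA that the cycle releases, and 4 of 5 genes tested for their formation and export had lower values. Bdh1, which interconverts the main ketone bodies, had 75.4, 16.4 and 9.90 FPKM in p21TKO, against 76.7, 69.3 and 72.4 FPKM in DKO. As in Acsl1, p21TKO replicates 2 and 3 alone were below the DKO values, with a log2 difference of -1.595 (limma adjusted p = 0.523) and of -2.42 without p21TKO replicate 1 (limma adjusted p = 0.0107). Without p21TKO replicate 3 it was -1.01. The electron transfer flavoproteins take electrons from the acyl-CoA dehydrogenases, and all 3 genes had negative log2 differences, although Etfb was at 0.40 without p21TKO replicate 2 and at 0.23 with the Y-linked term. Etfa had 131, 112 and 113 FPKM in p21TKO, against 145, 140 and 158 FPKM in DKO, with separated groups, while Etfb (-0.17) and Etfdh (-0.45) overlapped.

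Of 57 other oxidation enzymes and carriers tested, 44 had lower values. In 13 every p21TKO library was below DKO and in 1 every one was above. Of all tested genes, 8.49% were separated with p21TKO lower and 6.93% with p21TKO higher. Mlycd, which breaks down malonyl-CoA, the inhibitor of the Cpt1a enzyme, had 14.4, 7.43 and 8.48 FPKM in p21TKO, against 30.9, 29.8 and 30.2 FPKM in DKO. Its log2 difference of -1.55 had a limma adjusted p of 0.203, the smallest of the 119, and was -1.81 without p21TKO replicate 1 (limma adjusted p = 0.0094). Decr2, the peroxisomal counterpart of Decr1, had 42.4, 16.7 and 9.17 FPKM in p21TKO, against 97.8, 101 and 98.9 FPKM in DKO. The groups were far apart, at -2.34 (limma adjusted p = 0.412) and -2.90 without p21TKO replicate 1 (limma adjusted p = 0.0091). Slc22a5, the carnitine transporter of the cell membrane, had 5.97, 5.69 and 6.33 FPKM in p21TKO, against 10.4, 8.40 and 13.1 FPKM in DKO, at -0.72 (limma adjusted p = 0.515). Its p21TKO libraries lay close together, p21TKO replicate 1 included.

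Of the 9 other omega-oxidation genes tested, 8 had lower values. Their median log2 difference was -1.05 over all libraries, but -0.34 within libraries without Y-linked reads and -0.25 within those with them. Cyp4a32 had 10.6, 3.74 and 3.34 FPKM in p21TKO, against 19.2, 13.8 and 20.4 FPKM in DKO, at -1.58 (limma adjusted p = 0.515) and -2.03 without p21TKO replicate 1 (limma adjusted p = 0.0104). Aldh3a2, a fatty aldehyde dehydrogenase, had 31.4, 11.01 and 9.44 FPKM in p21TKO, against 56.0, 36.8 and 50.8 FPKM in DKO, at -1.59 (limma adjusted p = 0.523) and -2.10 without p21TKO replicate 1 (limma adjusted p = 0.0131). Both had separated groups, as did Cyp4f15 at -1.05. Of 29 PPARA targets outside oxidation, 18 had lower values. G0s2, an inhibitor of the main triglyceride lipase, had 14.1, 4.95 and 7.255 FPKM in p21TKO, against 31.2, 33.8 and 57.4 FPKM in DKO. Its log2 difference was -2.16 (limma adjusted p = 0.255) and -2.52 without p21TKO replicate 1 (limma adjusted p = 0.0158). Txnip (-0.82) and Fitm2 (-0.65) also had separated groups, with p21TKO lower.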

How the data were processed

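PolyA RNA of 6 liver libraries, 3 labelled p21TKO and 3 DKO, was made into libraries with a NEBNext Ultra kit, per the labels' protocols. The deposited table holds the authors' FPKM per gene. The submitters' processing notes name HISAT2 2.0.5 and featureCounts 1.5.0-p3, next to CASAVA 1.8, DESeq2 1.20.0 and fastp, and give the builds GRCh38 and hg38 although the gene IDs are mouse. Coordinates are GENCODE M21 (GRCm38), for 55480 of 55573 IDs. The sources used here do not give strandedness.

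For genes with a mean of at least 1 FPKM, limma 3.58.1 (R 4.3.3, eBayes with trend, two-sided, Benjamini-Hochberg over all genes) compared log2(FPKM + 1) between groups, and an adjusted p under 0.05 was called. The procedure was also run on simulated data with known changes, which did not include a split within the p21TKO group. FPKM times exon length gave whole reads within 0.02 for 99.3% of values, which served the voom alternative and the read numbers. Members and lists were chosen with earlier results of these data known. All members are named, with the 3 smallest p of each other pathway list and the markers of highest FPKM. Some genes that this rule takes are not reported here. Alternatives were the pseudocount, filter, scaling, variance model, replicate block, voom, a Y-linked term and each library left out. The comparisons within Y-linked status and their interaction were added after seeing the data. Sequences were searched with Python 3.11.15.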

Additional observations from a re-analysis of the deposited data

Results flagged for a closer look

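In 6 of the 34 genes, every comparison between p21TKO and DKO libraries without Y-linked reads went one way and every comparison between libraries with them the other. The share of all tested genes that met this rule was 18.9%, so the members' share lay near that of all genes. In Fabp1 the log2 difference was -4.31 without and 0.46 with Y-linked reads, a gap of -4.78. Acaa1b had -4.28 without and 0.029 with them, a gap of -4.31. The gap was 2.65 in Cd36 (1.78 without and -0.88 with Y-linked reads) and 1.67 in Cyp4a14 (1.35 without and -0.31 with them). The gaps were smaller in Cyp4a10, at -0.89, and in Hadhb, at -0.54. The test of the gap itself passed for none of the 6, with limma interaction adjusted p of 0.154 for Fabp1, 0.356 for Acaa1b, 0.112 for Cd36, 0.564 for Cyp4a14, 0.905 for Cyp4a10 and 0.948 for Hadhb. Each gap rests on a single p21TKO library with Y-linked reads and a single DKO library without them. Groups of 3 are too small to test a library as outlying.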

How the results depend on the processing

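No member was called under any alternative that kept all 6 libraries, where 30 of the 34 were tested with a mean of at least 5 FPKM. The members' median stayed between -0.49 and -0.33 over those alternatives and between -0.48 and -0.27 with each library left out. Lower values were found in 25 to 29 of the 34 members, and in 24 of the 30 tested with a mean of at least 5 FPKM. The number of all genes called, 7, was 4 with a mean of at least 5 FPKM, 1 with no filter, 21 with array weights, 0 with the replicate block and 1 with voom. With each library left out it ran from 1 to 495 genes and from 0 to 8 members, both highest without p21TKO replicate 1. Some of the smallest differences changed sign. Cyp4a10 was at -0.028 with mitochondrially encoded genes left out, -0.19 with array weights and -0.17 with the Y-linked term. Acadl was at 0.028 with quantile normalization, Hacl1 at 0.0062 and Cyp4a31 at -0.0063 with array weights, and Acadvl at -0.17 and Etfb at 0.23 with the Y-linked term. With each library left out, Acadl ran from -0.13 to 0.062, Hacl1 from -0.30 to 0.28, Acadvl from -0.43 to 0.57, Eci2 from -0.43 to 0.022, Acadm from -0.37 to 0.026, Cyp4a10 from -0.25 to 0.36, Cyp4a31 from -0.41 to 1.11 and Etfb from -0.73 to 0.40. The cause was not tested. Among the other pathway genes, Mlycd passed with array weights (-1.74, limma adjusted p = 0.0275). The sample titles give replicate numbers but do not say whether these pair the samples. Deviations from the group mean correlated at -0.44, -0.49 and -0.07 between libraries with the same number. These values cannot decide pairing, since libraries with Y-linked reads carry different numbers in the groups. The block is therefore only a shared number. Genes under about 1 FPKM rest on few reads, as do Acot2, Acot3 and Pdk4 with 15 to 73 reads in several libraries.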

Other observations

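Cyp4a12a, an omega-hydroxylase gene with higher expression in male mouse liver, was chosen after its values were seen. It had 288, 0.630 and 0.656 FPKM in p21TKO replicates 1 to 3, against 0, 129 and 115 FPKM in DKO replicates 1 to 3. The 3 libraries with Y-linked reads were those at 115 FPKM and above, and the other 3 were under 1 FPKM.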
